A study of Rattus norvegicus with 12 samples.

Results

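Transcripts of 6 genes of cell proliferation were followed in the livers of rats given a liver carcinogen, with or without green tea. The members were taken by gene identifier: Mki67 (ENSRNOG00000028137), Cdk1 (ENSRNOG00000000632), Top2a (ENSRNOG00000053047), Ccna2 (ENSRNOG00000015423), Ccnd1 (ENSRNOG00000020918) and Pcna (ENSRNOG00000021264). All 6 were found among the 34194 genes of the expression data; the rule names identifiers and sets no threshold on a value. RNA sequencing was done on livers of male Wistar rats at week 20, with 3 libraries in each of 4 groups, to which the rats had been assigned at random. How the sequenced livers were picked is not given in the sources used here. The Control group was injected with saline and drank water. The NDEA group received intraperitoneal N-nitrosodiethylamine (NDEA), a nitrosamine that liver enzymes turn into a DNA-alkylating agent, at 25 mg/kg in 2 weekly injections between week 2 and week 9, with water to drink. The NDEA + CFT-1 group had the same injections and drank an infusion of CFT-1, a tea variety rich in epigallocatechin gallate (EGCG). The NDEA + FYT group had the same injections and drank an infusion of the common tea Fuyun6. NDEA is thus shared by 3 of the 4 groups, tea without NDEA was not analysed here, and which piece of liver, nodule or surrounding tissue, gave the RNA is not given in the sources used here.

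Most hepatocytes of an adult liver rest outside the cell cycle and re-enter it after injury or loss of tissue. Entry is driven by D-type cyclins such as cyclin D1 (Ccnd1), a transcript that follows growth signals and is present in liver cells that do not divide. Copying of DNA needs the sliding clamp Pcna, which also serves DNA repair. Cyclin A2 (Ccna2), the kinase Cdk1, the DNA-untangling enzyme Top2a and the proliferation antigen Ki-67 (Mki67) are made mainly from DNA synthesis to mitosis, so their transcripts mark dividing cells. Many genes of this late group carry CCAAT boxes, read by NF-Y, and a cell cycle genes homology region with the core TTTGAA, read by the DREAM and MuvB complexes. E2F factors read sites with the core TTGGCGC or close variants of it. The variants searched were TTCGCGC, then TTCCCGC and also TTGCCGC.

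The 250 bases before the gene start are shown for the 4 members found in the RefSeq promoter sequences, because the late genes moved together in the data described here. They are given 5′ to 3′ in the direction of the gene, in build GRCr8, while the expression values were made on Rnor_6.0. Capitals mark the CCAAT box, the TTTGAA core and the 4 E2F-type words on either strand. On the other strand CCAAT is written as ATTGG, and TTTGAA reads as TTCAAA instead. Positions are chr1:199952594-199952843 (minus strand) for Mki67, chr10:84473094-84473343 (minus strand) for Top2a, chr20:19265043-19265292 (plus strand) for Cdk1 and chr3:139955821-139956070 (minus strand) for Pcna. Ccna2 and Ccnd1 were not matched.
Mki67: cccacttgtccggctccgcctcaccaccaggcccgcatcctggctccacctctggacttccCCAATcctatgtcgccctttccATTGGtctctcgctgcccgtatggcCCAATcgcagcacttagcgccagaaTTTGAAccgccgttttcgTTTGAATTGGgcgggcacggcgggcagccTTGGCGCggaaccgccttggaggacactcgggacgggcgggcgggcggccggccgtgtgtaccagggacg
Top2a: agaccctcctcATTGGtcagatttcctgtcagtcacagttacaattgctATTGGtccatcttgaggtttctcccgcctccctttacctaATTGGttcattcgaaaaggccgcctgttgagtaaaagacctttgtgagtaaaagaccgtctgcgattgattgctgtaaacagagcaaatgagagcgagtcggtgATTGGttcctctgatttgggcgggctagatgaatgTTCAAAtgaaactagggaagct
Cdk1: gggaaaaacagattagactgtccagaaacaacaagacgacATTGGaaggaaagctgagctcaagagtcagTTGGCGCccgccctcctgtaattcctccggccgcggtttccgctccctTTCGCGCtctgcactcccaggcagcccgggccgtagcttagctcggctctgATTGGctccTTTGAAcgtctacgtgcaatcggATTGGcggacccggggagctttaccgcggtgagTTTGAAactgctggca
Pcna: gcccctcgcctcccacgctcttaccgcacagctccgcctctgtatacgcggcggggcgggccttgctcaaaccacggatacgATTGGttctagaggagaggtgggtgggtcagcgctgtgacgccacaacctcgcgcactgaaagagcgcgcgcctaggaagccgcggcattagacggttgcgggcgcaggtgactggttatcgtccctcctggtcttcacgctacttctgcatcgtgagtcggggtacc

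A CCAAT box was found in 4 of the 4 promoters, against 34% of all 33469 promoters of the same length. The core TTTGAA was found in Mki67, Top2a and Cdk1 and not in Pcna, against 16.2% of all promoters. Both words were present in these 3 genes, and in 5.87% of all promoters. In Mki67 the second TTTGAA, at -99 to -94 from the gene start, shared 1 base with a reversed CCAAT at -94 to -90. Cdk1 had TTTGAA at -72 to -67 and at -16 to -11, and Top2a had 1 copy, in reverse, at -22 to -17. TTGGCGC was found in Mki67 and Cdk1 (1.78% of all promoters) and TTCGCGC in Cdk1 (1.21%). TTCCCGC (3.36%) and TTGCCGC (1.73%) were in none of the 4, which says only that these letters are not in these windows. At least 1 of the 4 E2F-type words was present in 7.59% of all promoters. These matches describe the sequence and are not measured binding sites.

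Expression was deposited as FPKM, fragments normalised to the length of the gene and to the number mapped in the library, so that levels can be compared between genes. The steps between FPKM values gave back the smallest whole read numbers behind each value, and relative depths from 1 in NDEA replicate 1, the shallowest library, to 1.66 in NDEA + CFT-1 replicate 1. Intervals given for single libraries are exact 95% Poisson intervals of these reads and cover counting error only. Median-of-ratios scaling, which divides each library by the median ratio of its genes to their geometric mean, gave factors from 0.771 (Control replicate 3) to 1.40 (NDEA replicate 1). NDEA replicate 1 was therefore both the shallowest library and the one with the highest FPKM values in general. It was the highest of the 12 libraries for 49.4% of the 11854 genes whose FPKM averaged 1 or more as deposited, and for 20% after scaling. Its part in a result is given as the value after scaling or without this library, where that was computed. Other liver and cell type markers could not be looked up by name and were not analysed here. In bulk tissue, fewer dividing cells and less RNA per dividing cell cannot be told apart.

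The late cell cycle transcripts were low in all groups, with the lowest means in Control livers, and as deposited each was highest in NDEA replicate 1. The FPKM of Mki67 was 0.129, 0.489 and 0.270 in the 3 Control libraries, 2.59, 0.568 and 0.569 in NDEA, 0.697, 0.406 and 1.28 in NDEA + CFT-1, and 1.28, 0.931 and 0.801 in NDEA + FYT. These values rest on 29 reads in Control replicate 1 (interval 0.0864 to 0.185 FPKM) and on 397 in NDEA replicate 1 (2.34 to 2.86 FPKM). Every NDEA library lay above every Control library, as for 8.54% of genes above 0 in at least 1 library. The closest of these were NDEA replicate 2, on 116 reads, and Control replicate 2, on 91 reads. Their intervals overlapped and each value lay inside the interval of the other, so this gap lay within counting error. Every NDEA + FYT library also lay above Control, as for 12.8% of genes above 0, and both tea groups overlapped NDEA. The group means were 0.296 ± 0.181 in Control, 1.24 ± 1.17 in NDEA, 0.794 ± 0.444 in NDEA + CFT-1 and 1.00 ± 0.246 in NDEA + FYT (SD, n = 3).

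Top2a, the topoisomerase that separates copied chromosomes, had nearly the same profile. Its FPKM was 0.150, 0.764 and 0.291 in Control, 3.13, 0.724 and 0.837 in NDEA, 0.994, 0.572 and 1.55 in NDEA + CFT-1, and 1.62, 1.15 and 1.04 in NDEA + FYT. Control replicate 2 lay inside the range of the NDEA libraries. The 3 NDEA + FYT libraries were all above Control, as for 12.8% of genes above 0 in at least 1 library. The closest of these libraries had overlapping intervals (0.873 to 1.23 against 0.602 to 0.957 FPKM). The lowest Top2a value came from 18 reads and the highest from 256.

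Cdk1, the kinase that starts mitosis, spread over the widest range. Its FPKM was 0.454, 2.15 and 0.322 in Control, 11.5, 1.62 and 2.98 in NDEA, 1.92, 1.09 and 3.55 in NDEA + CFT-1, and 4.09, 2.34 and 2.41 in NDEA + FYT. The highest library exceeded the lowest by 35.7-fold, compared with 20.9-fold for Top2a, 20.1-fold for Mki67 and 11.9-fold for Ccna2. Only 10 reads stand behind the lowest Cdk1 value (interval 0.154 to 0.592 FPKM). Control replicate 2 was again far above the other 2 Control libraries, at 51 reads.

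Ccna2, the cyclin of DNA synthesis and early mitosis, had FPKM values of 0.231, 0.838 and 0.277 in Control, 2.75, 0.917 and 0.775 in NDEA, 0.839, 0.273 and 1.57 in NDEA + CFT-1, and 1.26, 1.01 and 1.04 in NDEA + FYT. NDEA + CFT-1 replicate 2, with 11 reads, fell within the Control range. The 3 NDEA + FYT livers were close together, with an SD of 0.136 around a mean of 1.10.

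The 2 members that are also used outside division were far more abundant and ranged less between libraries. The FPKM of Ccnd1 was 14.1, 17.2 and 35.1 in Control, 30.6, 17.1 and 18.5 in NDEA, 23.7, 23.1 and 32.3 in NDEA + CFT-1, and 28.3, 31.7 and 25.0 in NDEA + FYT. The highest Ccnd1 level of all was in an untreated liver, Control replicate 3, and the Control libraries spanned the values of all other groups. The FPKM of Pcna was 16.5, 17.2 and 16.6 in Control, 27.6, 17.0 and 17.3 in NDEA, 18.4, 15.5 and 25.2 in NDEA + CFT-1, and 19.2, 20.8 and 20.1 in NDEA + FYT. As deposited, Control (SD 0.345) and NDEA + FYT (SD 0.786) livers were tight for Pcna, and 1 liver in each of the other groups stood above the rest. After scaling the SD of Pcna was 2.70 in Control, 1.43 in NDEA, 4.22 in NDEA + CFT-1 and 1.09 in NDEA + FYT, so Control was no longer tight. The highest library exceeded the lowest by 2.49-fold for Ccnd1 and 1.78-fold for Pcna.

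**Figure D1:**
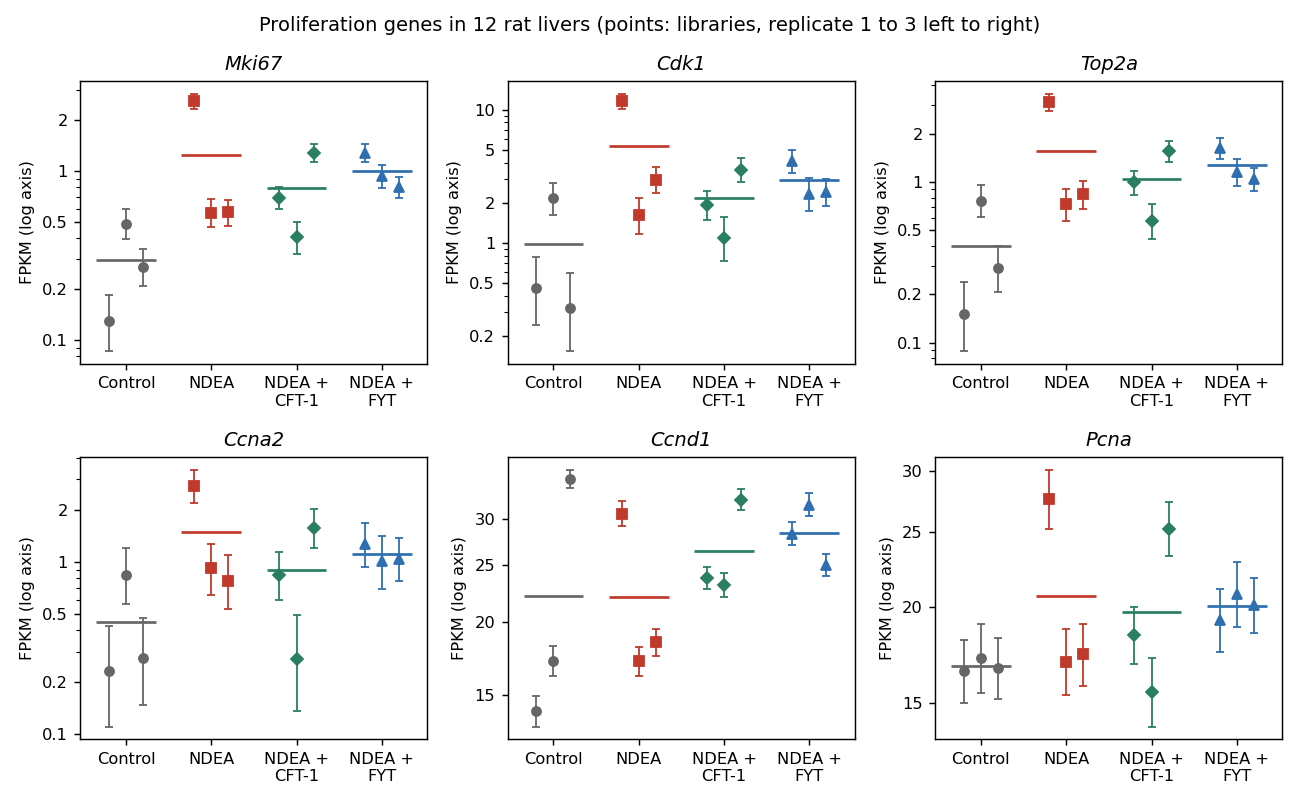
FPKM of the 6 genes in each library on log axes, by group, with points for libraries, exact 95% Poisson intervals of the read numbers as bars and group means as lines. NDEA replicate 1 is the highest of the 12 points for Mki67, Cdk1, Top2a, Ccna2 and Pcna, and Control replicate 3 for Ccnd1.

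NDEA replicate 1 was the highest library for 5 of the 6 members as deposited, against 41.9% of the 24718 genes above 0 in at least 1 library. After scaling it was the highest for 4 (Mki67, Cdk1, Top2a and Ccna2), against 22.6% of genes. The scaled maximum of Pcna was in NDEA + CFT-1 replicate 3, at 25.9, and that of Ccnd1 in Control replicate 3, at 45.5. The scaled ranges were 19.6-fold for Cdk1, 14.7-fold for Top2a, 14.1-fold for Mki67, 8.34-fold for Ccna2, 3.18-fold for Ccnd1 and 1.55-fold for Pcna. NDEA + CFT-1 replicate 3 was the highest liver of its group for all 6 genes as deposited. The share of all genes for which this holds was not computed.

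Two-sided tests asked whether group means of log2(FPKM + 1) differed, in a limma fit over all 4 groups with Benjamini-Hochberg adjustment over all genes tested. Only Cdk1, Top2a, Ccnd1 and Pcna passed the filter, an average FPKM of 1 or more. Top2a passed at 1.07 only with NDEA replicate 1, since its mean without that library was 0.882, while Mki67 (0.834) and Ccna2 (0.982) did not pass. Values for Mki67 and Ccna2 come from the fit of all 24718 genes above 0. With 3 livers against 3, the smallest two-sided p of an exact permutation test is 0.1. No member was called in any comparison, and limma called 0 of 11854 genes in each of them (0%). At an unadjusted p under 0.05 limma counted 1031 genes for NDEA minus Control, 1494 for NDEA + CFT-1 minus NDEA, 176 for NDEA + FYT minus NDEA, 642 for NDEA + CFT-1 minus NDEA + FYT and 737 for any group difference.

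The question of whether the carcinogen was accompanied by more proliferation transcripts was addressed by NDEA against Control. Mean levels of the 4 late genes were higher in NDEA, by 5.49-fold for Cdk1, 4.20-fold for Mki67, 3.89-fold for Top2a and 3.30-fold for Ccna2. Ccnd1 (0.998-fold) and Pcna (1.23-fold) were close in both groups. Without NDEA replicate 1, the ratios to the Control mean were 2.35 for Cdk1, 1.92 for Mki67, 1.94 for Top2a, 1.89 for Ccna2, 0.805 for Ccnd1 and 1.02 for Pcna. On the log2(FPKM + 1) scale, which understates changes of low genes, the difference of Cdk1 was 1.48 (SE 0.53, limma adjusted p = 0.524, unadjusted p = 0.0168). It was larger than that of 99.4% of tested genes, and fell to 0.82 without NDEA replicate 1, where the limma p was 0.0767 before adjustment. The difference of Top2a was 0.77 (SE 0.33, limma adjusted p = 0.524). Top2a passed the filter only through NDEA replicate 1, so no conclusion is drawn from this p. The other differences were 0.71 for Ccna2 (SE 0.33, limma adjusted p = 0.582), 0.68 for Mki67 (SE 0.31, limma adjusted p = 0.582), 0.25 for Pcna (SE 0.21, limma adjusted p = 0.603) and 0.06 for Ccnd1 (SE 0.31, limma adjusted p = 0.943). Without NDEA replicate 1 the differences were 0.37 for Top2a, 0.37 for Ccna2, 0.28 for Mki67, 0.032 for Pcna and -0.19 for Ccnd1.

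With all libraries, 7.59% of tested genes had a higher mean in NDEA at an unadjusted limma p under 0.05, and 3.79% after scaling. As deposited these were 900 genes, and 275 without NDEA replicate 1. Top2a, which passed the filter only through NDEA replicate 1, had an unadjusted limma p of 0.0384 with that library and 0.160 without it. The NDEA libraries of Mki67 were all above Control (exact p = 0.1), as were 8.54% of genes above 0 as deposited and 4.56% after scaling. As deposited, the closest of these Mki67 libraries had overlapping intervals, as given above. The 6 members had a median difference of 0.70, compared with 0.09 over all genes. After scaling these medians were 0.56, with 4 of the 6 members above 0, and 0.0083. The median of the members without NDEA replicate 1 was not computed, and 5 of the 6 are lower without it, as given above. Scaling lowered the median of the 11854 tested genes in this comparison from 0.20 to -0.04. The scaled differences were 1.29 for Cdk1, 0.63 for Top2a, 0.57 for Ccna2 and 0.54 for Mki67, while Pcna (-0.03) and Ccnd1 (-0.22) changed sign.

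Whether CFT-1 tea was accompanied by lower proliferation transcripts was addressed by NDEA + CFT-1 against NDEA. Mean FPKM in NDEA + CFT-1 was 0.407 times that in NDEA for Cdk1, 0.604 times for Ccna2, 0.638 times for Mki67 and 0.664 times for Top2a. For Pcna the ratio was 0.955, and for Ccnd1 it was 1.20. No member was called, and the 2 groups overlapped for all 6 genes as deposited. The log2 difference of Cdk1 was -0.74 (95% interval -1.90 to 0.41, limma adjusted p = 0.553). The other late genes differed by -0.36 (Ccna2), -0.24 (Top2a) and -0.23 (Mki67), with intervals that held changes of either sign. After scaling these differences were -0.53 for Cdk1, -0.22 for Ccna2, -0.09 for Mki67 and -0.07 for Top2a, while the median of all tested genes went from -0.16 to 0.05. Compared with NDEA replicates 2 and 3 alone, the mean of NDEA + CFT-1 was 1.40 times as high for Mki67, 1.33 for Top2a, 1.06 for Ccna2 and 0.950 for Cdk1. On the log2 scale and without NDEA replicate 1, Mki67 (0.16) and Top2a (0.17) were no longer lower in NDEA + CFT-1, and Cdk1 (-0.093) and Ccna2 (-0.020) stayed just below 0. Scaled Ccnd1 was higher in the 3 NDEA + CFT-1 livers than in the 3 NDEA livers (28.4 ± 4.73 against 19.1 ± 2.31, SD, n = 3, exact p = 0.1), as were 11.1% of tested genes, with 8.91% lower. As deposited, 2.7% of tested genes were higher and 14.1% lower without overlap.

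In NDEA + FYT the means of the late genes were also below those of NDEA. Mean FPKM was 0.548 times that of NDEA for Cdk1, 0.745 times for Ccna2, 0.807 times for Mki67, 0.814 times for Top2a and 0.970 times for Pcna. Ccnd1 was 1.28 times as high. No log2 difference was called by limma (adjusted p = 1.00 for all 6), the lowest being -0.39 for Cdk1 (95% interval -1.55 to 0.77) and the highest 0.39 for Ccnd1 (-0.29 to 1.06). After scaling the late genes differed by -0.33 (Cdk1), -0.10 (Ccna2), -0.0089 (Top2a) and -0.0012 (Mki67). Against NDEA replicates 2 and 3 the ratios were all above 1, from 1.17 for Pcna to 1.76 for Mki67. The scaled Ccnd1 levels of the 3 NDEA + FYT livers (26.0 ± 2.96, SD, n = 3) were all above NDEA (exact p = 0.1), as were 3.57% of tested genes. As deposited no member was free of overlap in this comparison, against 3.91% of tested genes higher and 2.03% lower. Both comparisons of tea with NDEA use the same 3 NDEA libraries.

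**Figure D2:**
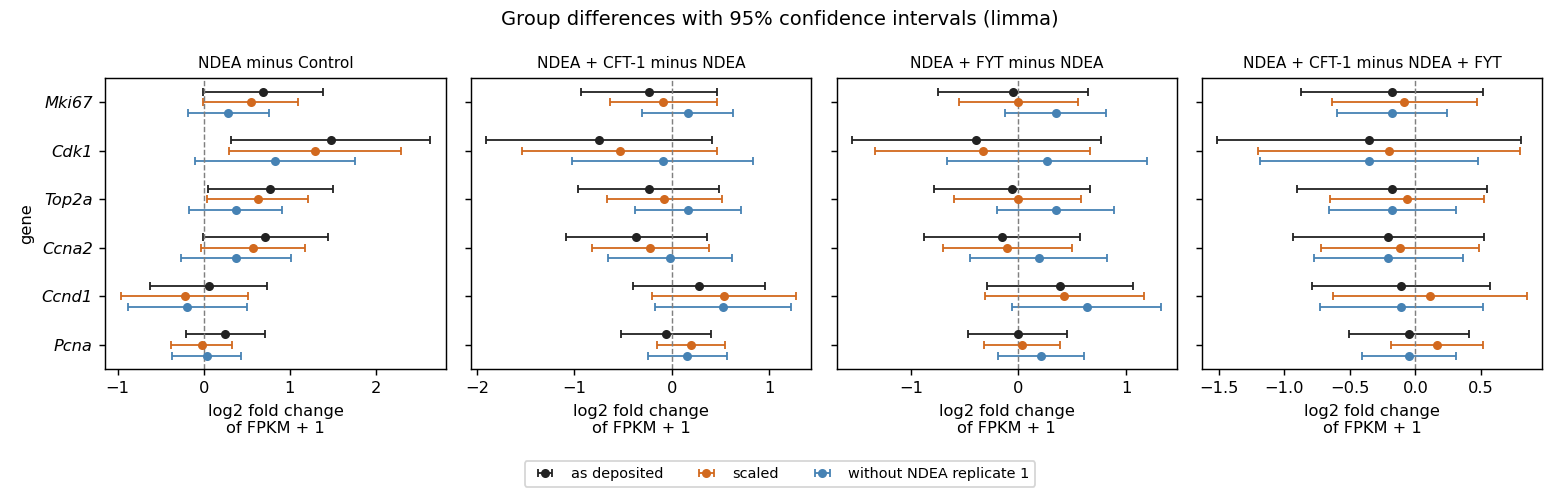
Differences of group means of log2(FPKM + 1) for the 6 genes with 95% confidence intervals from limma, as deposited (black), after scaling (orange) and without NDEA replicate 1 (blue). Without that library the difference of Cdk1 between NDEA and Control fell from 1.48 to 0.82, and the differences of Mki67 and Top2a between NDEA + CFT-1 and NDEA moved from below to above 0.

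The teas, which differ in their EGCG content, were compared directly. Mean FPKM was lower in NDEA + CFT-1 than in NDEA + FYT for all 6 genes as deposited. The log2 differences were -0.35 for Cdk1 (95% interval -1.51 to 0.80), -0.21 for Ccna2 (-0.93 to 0.52), -0.18 for both Mki67 (-0.88 to 0.51) and Top2a (-0.90 to 0.55), -0.11 for Ccnd1 (-0.79 to 0.57) and -0.05 for Pcna (-0.51 to 0.41). None was called by limma (adjusted p from 0.948 to 1), and the groups overlapped for each gene, while 2.29% of tested genes were higher and 18.9% lower without overlap as deposited, and 12.6% higher and 8.3% lower after scaling. The median of all tested genes in this comparison was -0.14 as deposited and 0.04 after scaling. After scaling, Ccnd1 (0.11) and Pcna (0.17) were higher in NDEA + CFT-1 and the 4 late genes stayed between -0.07 and -0.20.

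The injected groups were also set against Control, a comparison added after the values were seen. In NDEA + FYT, every library was above every Control library for Mki67, Cdk1, Top2a, Ccna2 and Pcna as deposited (exact p = 0.1 each). This was so for 12.8% of genes above 0 and 18.8% of those that averaged 1 or more. After scaling it held for Mki67, Cdk1, Top2a and Ccna2, against 4.82% of genes above 0 and 5.18% of those that averaged 1 or more. For Cdk1 the lowest scaled NDEA + FYT level was 2.16, on 52 reads, against 2.13 on 51 reads in Control replicate 2, and for Ccna2 it was 0.935, on 34 reads, against 0.830 on 30 reads, so both gaps lay within counting error. The closest Top2a libraries, on 136 and 76 reads, had overlapping intervals as deposited (0.873 to 1.23 against 0.602 to 0.957 FPKM). Overlap of 2 intervals is not a test of their difference, and whether this gap exceeds counting error was not tested. In NDEA + CFT-1, no member lay wholly above Control as deposited (3.98% of genes above 0), and Mki67 did after scaling (3.69%). That separation was narrow: the lowest scaled Mki67 of NDEA + CFT-1 was 0.496, on 85 reads, and the highest of Control 0.485, on 91 reads, a gap within counting error. As deposited the same libraries stood at 0.406 and 0.489. The log2 differences from Control were 1.08 (NDEA + FYT) and 0.73 (NDEA + CFT-1) for Cdk1, 0.71 and 0.54 for Top2a, 0.63 and 0.45 for Mki67, and 0.56 and 0.35 for Ccna2. Limma called none of the 6 genes in either comparison (adjusted p from 0.844 to 1), and at an unadjusted p under 0.05 it counted 450 genes for NDEA + FYT and 385 for NDEA + CFT-1, none of them a member. Without NDEA replicate 1, the count for NDEA + FYT was 1067 of the same 11854 genes, 1007 of them higher, and it held Cdk1 (limma p of 0.0154 before adjustment) and Top2a (0.00792), whose mean is under the filter without that library. For NDEA + CFT-1 the count was then 697, and it was 225 without Control replicate 1. Mki67 and Ccna2 were not in these filtered fits. In the fit of genes above 0 without NDEA replicate 1, the unadjusted limma p of Mki67 was 0.00795 for NDEA + FYT (adjusted 0.568). For NDEA + CFT-1 it was 0.0380 (adjusted 0.949). Control is shared by these comparisons, so their values are not independent.

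With the 9 injected livers as 1 group, the smallest exact p is 0.00455. The log2 differences from Control were 1.10 for Cdk1 (exact permutation p = 0.0545), 0.67 for Top2a (0.0409), 0.59 for Mki67 (0.0409), 0.54 for Ccna2 (0.0773), 0.28 for Ccnd1 (0.345) and 0.23 for Pcna (0.136). After scaling the exact permutation p was 0.0318 for Cdk1, 0.0182 for Top2a, 0.0227 for Mki67, 0.0591 for Ccna2, 0.755 for Ccnd1 and 0.686 for Pcna. These p-values are not adjusted for the genes of the expression data, and limma called no gene of 11854 after adjustment (0%; adjusted p = 0.822 for Cdk1 and Top2a). At an unadjusted p under 0.05 the limma fit held 576 genes, and 4.07% of tested genes were higher in injected livers (2.24% after scaling). The count was 317, with 153 higher, without Control replicate 3, and 1060, with 933 higher, without NDEA replicate 2. The unadjusted limma p of Cdk1 was 0.0265 (0.0176 without NDEA replicate 1), and that of Top2a, which passed the filter only with that library, was 0.0288 (0.0134 without it). Scaled Mki67 was higher in each of the 9 injected livers than in any of the 3 Control livers, which 0.433% of genes above 0 shared. This again rests on the gap between 0.485 and 0.496, within counting error, and the groups overlapped as deposited. Leaving out 1 library at a time gave differences of 0.86 to 1.49 for Cdk1, 0.54 to 0.85 for Top2a, 0.45 to 0.69 for Mki67, and 0.43 to 0.73 for Ccna2. The highest unadjusted limma p among these fits was 0.121 for Cdk1, 0.123 for Top2a, 0.156 for Mki67 and 0.218 for Ccna2. For Ccnd1 the difference ran from 0.025 to 0.65, the highest without Control replicate 3. Over all 4 groups, the exact permutation p of the between-group sum of squares was 0.175 for Cdk1, 0.203 for Top2a, 0.231 for Mki67, 0.280 for Ccna2, 0.538 for Ccnd1 and 0.623 for Pcna. The smallest p this test allows is 6.49e-05.

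As deposited, the order of means was Control, NDEA + CFT-1, NDEA + FYT and NDEA from low to high for Mki67, Cdk1, Top2a, Ccna2 and Pcna. Neighbours in that order overlapped in each of these genes. The order of Ccnd1 was NDEA, Control, NDEA + CFT-1 and NDEA + FYT. After scaling Pcna was ordered NDEA, NDEA + FYT, Control and NDEA + CFT-1, and the last 2 groups of the Ccnd1 order were exchanged.

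Levels of the late genes rose and fell together from liver to liver. Over the 12 scaled libraries, log2 levels of Mki67 and Top2a had a Pearson's r of 0.987 (Spearman's rho 0.958), and each was the gene most like the other among 11855 compared, which are the genes whose FPKM averaged 1 or more and the members below that, so other low genes were not ranked. Without NDEA replicate 1 their r was 0.982, and with group means removed it was 0.980. Cdk1 had an r of 0.951 with Top2a, 0.922 with Mki67 and 0.918 with Ccna2. Ccna2 had an r of 0.938 with Top2a and 0.936 with Mki67. For each of these 4 genes the other 3 were among the 20 most alike, and a Pearson's r of at least 0.9 with Mki67 was reached by 0.211% of genes. Without NDEA replicate 1, Cdk1 was number 23 for Mki67 and Mki67 number 23 for Cdk1, and the number of genes at an r of at least 0.9 with Mki67 went from 25 to 11. The r of Cdk1 was then 0.925 with Top2a, 0.878 with Ccna2 and 0.866 with Mki67, and that of Ccna2 0.906 with Top2a and 0.905 with Mki67. All pairs share the same libraries and their scaling, so these values are descriptions.

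**Figure D3:**
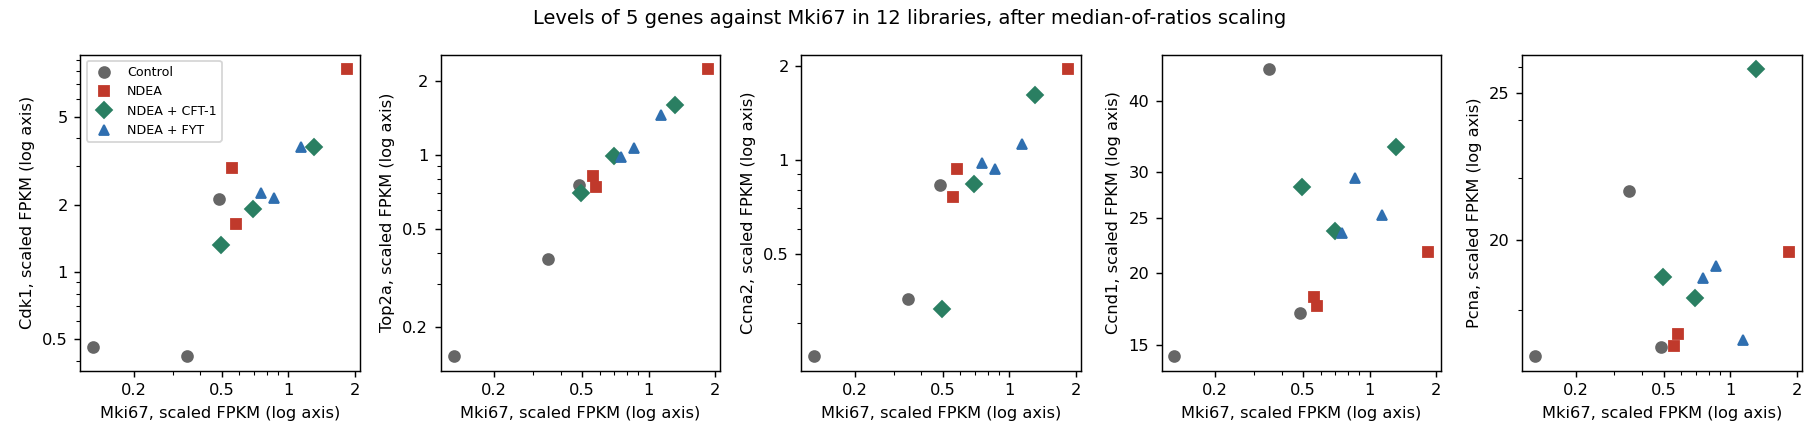
Scaled FPKM of Cdk1, Top2a, Ccna2, Ccnd1 and Pcna against that of Mki67 in the 12 libraries on log axes, with symbols for the groups. Top2a follows Mki67 closely from Control replicate 1 to NDEA replicate 1, and the points of Ccnd1 and Pcna are scattered.

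Ccnd1 and Pcna stood apart from the late genes and were more like each other. Their r was 0.751 (rho 0.818), and 0.766 without NDEA replicate 1. Pcna was number 60 among the genes most like Ccnd1, and Ccnd1 number 55 among those most like Pcna, and these places were 103 and 104 without NDEA replicate 1. The r of Pcna was 0.421 with Mki67, 0.351 with Ccna2, 0.349 with Top2a and 0.154 with Cdk1. That of Ccnd1 was 0.240 with Mki67, 0.180 with Top2a, 0.04 with Ccna2 and -0.07 with Cdk1.

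**Figure D4:**
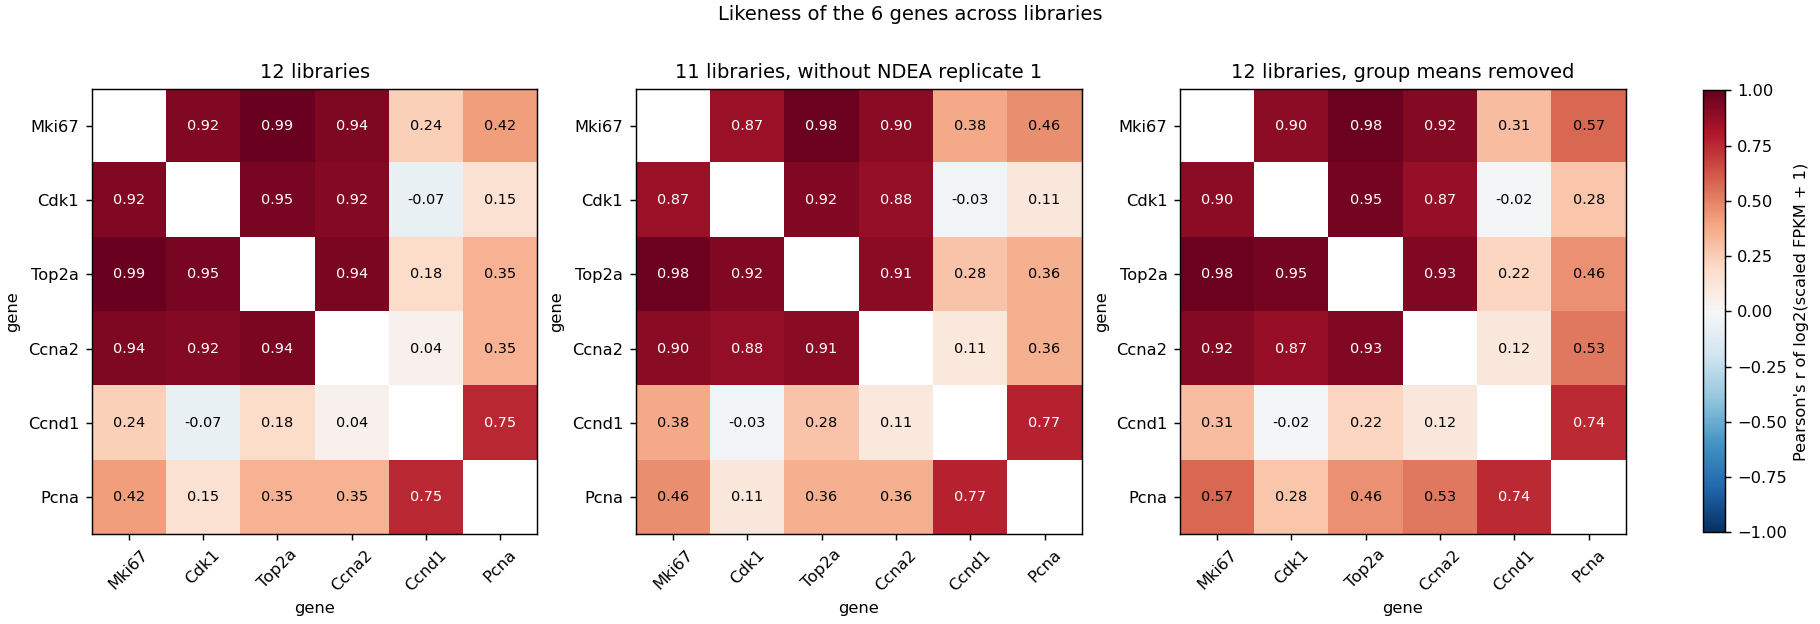
Pearson's r of log2(scaled FPKM + 1) for each pair of genes over 12 libraries, over 11 libraries without NDEA replicate 1, and over 12 libraries with group means removed. The block of Mki67, Cdk1, Top2a and Ccna2 has its lowest r at 0.866, for Mki67 and Cdk1 without NDEA replicate 1, and Ccnd1 and Pcna pair at 0.74 to 0.77.

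Ratios of 2 genes within a library do not depend on scaling between libraries, and were added after the values were seen. Mki67 to Top2a stayed between 0.640 and 0.928 in the 12 libraries (CV 10.6%), a 1.45-fold range while Mki67 itself ranged 20.1-fold. The exact p of this ratio ran from 0.4 to 1 over the 6 pairs of groups. Cdk1 to Top2a ranged more, from 1.11 to 3.67, and was 3.67, 2.23 and 3.56 in the NDEA livers against 1.90 to 2.29 in NDEA + CFT-1 (exact p = 0.2). In Control it was 3.03, 2.82 and 1.11. Ccna2 to Top2a ranged from 0.477 to 1.54. Top2a to Pcna ranged 12.5-fold, from 0.00907 in Control replicate 1 to 0.113 in NDEA replicate 1. Its lowest NDEA + FYT value was 0.0518 and its highest Control value 0.0445, in the same libraries whose Top2a intervals overlap.

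The ratio of Ccnd1 to Pcna was 1.01 to 1.11 in the 3 NDEA livers, 1.28 to 1.49 in NDEA + CFT-1 and 1.25 to 1.52 in NDEA + FYT. The log2 difference from NDEA was 0.35 for NDEA + CFT-1 and 0.41 for NDEA + FYT, each with an exact p of 0.1, the smallest that 3 against 3 allows. How often other pairs of genes differ in this way was not computed. In Control the ratio ran from 0.853 to 2.11 and covered all other groups. The 6 pairs of groups were compared for each of 5 ratios without adjustment, and no such p can pass 0.05.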

How the data were processed

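RNA was sequenced from 12 rat livers, grouped and numbered as labelled. The deposited FPKM values were made by the authors from paired reads, after trimming, mapping, removal of PCR duplicates and counting of unique alignments per gene. The submitters' processing notes name Trimmomatic, HISAT2, HTSeq 0.6.1 and Rnor_6.0, and the annotation is not given in the sources used here. Count tables were not used here. Removing duplicates can lower the values of abundant genes.

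Differences in log2(FPKM + 1) were fitted in R 4.3.3 by limma 3.58.1 with a trended prior, all 4 groups in 1 model, over 11854 genes whose FPKM averaged 1 or more, with Benjamini-Hochberg adjustment and a threshold of 0.05. Exact permutation tests, read numbers and correlations were computed in Python 3.11.15 with NumPy 2.4.6 and pandas 2.3.3, and plots were drawn with matplotlib 3.10.9. Whole reads were recovered per gene from FPKM ratios between libraries as the smallest whole numbers that fit within 0.05, so true numbers could be a common multiple of these. The fit was tested on simulated data. Alternatives were median-of-ratios scaling, a pseudocount of 0.1, no filter, the replicate number as a block and each library left out in turn. The comparisons of tea groups and of all injected livers with Control, the within-library ratios and 2 joint settings were added after seeing the data.

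The genes named are the 6 members, by identifier. Members and lists were chosen with earlier results of these data known. The 34194 IDs could not be paired with other symbols, so lists of other cell cycle genes, liver cell type markers and the names of the most similar genes were not analysed here. Promoters came from RefSeq (GRCr8), with 4 of 6 members matched by symbol.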

Additional observations from a re-analysis of the deposited data

How the results depend on the processing

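With the filter on low values, the count of genes called by limma stayed at 0 under median-of-ratios scaling, a pseudocount of 0.1 and the replicate block in all comparisons. Same-numbered livers were not alike in every pair of groups: the deviations of 18 same-numbered pairs correlated from -0.47 to 0.28, with 7 over 0.1. Those between Control and NDEA + CFT-1 were 0.22, 0.27 and 0.28. Those between NDEA and NDEA + CFT-1 were -0.33, -0.47 and -0.047. Pairs with different numbers ran from -0.25 to 0.39. Whether the numbers mark a shared origin was not tested. Without the filter on low values limma called 1 gene for NDEA minus Control, 2 for all injected livers minus Control, 1 each for NDEA + CFT-1 and NDEA + FYT minus Control and 1 for any group difference. Without the filter and with a pseudocount of 0.1 these were 1, 1, 2, 1 and 2, with 1 for NDEA + CFT-1 minus NDEA and 1 for NDEA + CFT-1 minus NDEA + FYT. Without the filter, NDEA minus Control and all injected livers minus Control each gave 3 under scaling and 1 under the replicate block. Leaving out each library with the filter gave 0 to 2 for NDEA minus Control and for all injected livers minus Control (2 without Control replicate 2), 0 for NDEA + CFT-1 minus NDEA, and 0 to 1 elsewhere (1 without NDEA + FYT replicate 3 or, for NDEA + CFT-1 minus Control, without Control replicate 2). No member was called in any of these fits, and the cause of the other calls was not tested. Without the filter and without NDEA replicate 1 limma called 24 genes for NDEA minus Control, 23 for NDEA + CFT-1 minus NDEA and 24 for NDEA + FYT minus NDEA, again no member. In the same order the counts were 21, 13 and 10 without NDEA replicate 2, and 11, 8 and 7 without NDEA replicate 3. Without Control replicate 3 and the filter, limma called 11 for NDEA minus Control and 13 for all injected livers minus Control. Of the log2 differences of the members, 204 kept their sign in the alternatives that keep all libraries or join 2 settings and 20 did not. The replicate block, and dropping the filter alone, leave these differences as they are. Part of the 204 could therefore not turn. A pseudocount of 0.1 turned Mki67 in NDEA + FYT minus NDEA to 0.029. With that pseudocount NDEA minus Control was 2.29 for Cdk1 (limma adjusted p = 0.533) and 1.53 for Mki67 (limma adjusted p = 0.597). In the main setting these differences were 1.48 and 0.68. Scaling turned Ccnd1 to -0.22 (NDEA minus Control) and 0.11 (NDEA + CFT-1 minus NDEA + FYT), and Pcna to -0.027 (NDEA minus Control), 0.20 (NDEA + CFT-1 minus NDEA), 0.033 (NDEA + FYT minus NDEA) and 0.17 (NDEA + CFT-1 minus NDEA + FYT). With scaling and without NDEA replicate 1, NDEA + CFT-1 minus NDEA became 0.20 for Mki67, 0.21 for Top2a, 0.0084 for Ccna2 and 0.26 for Pcna, and NDEA + FYT minus NDEA 0.29, 0.28, 0.12 and 0.095 for these and 0.17 for Cdk1. Under the same setting NDEA minus Control was -0.31 for Ccnd1 and -0.088 for Pcna, and the teas differed by 0.11 for Ccnd1 and 0.17 for Pcna.

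Leaving out 1 library turned 17 differences and left the sign of 487. A difference between 2 groups cannot change when a library of another group is left out. Many of the 487 were therefore fixed in advance, and the count does not measure how stable the signs are. NDEA + CFT-1 minus NDEA ran from -0.43 to 0.16 for Mki67, -0.46 to 0.17 for Top2a and -0.24 to 0.16 for Pcna. NDEA + FYT minus NDEA ran from -0.25 to 0.35 for Mki67, -0.87 to 0.26 for Cdk1, -0.29 to 0.34 for Top2a, -0.35 to 0.19 for Ccna2 and -0.12 to 0.21 for Pcna. In these comparisons the highest value was without NDEA replicate 1. NDEA minus Control ran from -0.20 to 0.43 for Ccnd1, and NDEA + CFT-1 minus NDEA + FYT from -0.46 to 0.050 for Ccna2 and -0.23 to 0.10 for Pcna. The exact p over the 4 groups stayed above 0.05 for all 6 genes, with a lowest value of 0.0545 for Cdk1. Few reads limit Cdk1 and Ccna2 in Control, where the lowest values rest on 10 reads each. The libraries with these values were not shallow, with relative depths of 1.60 (Control replicate 3, Cdk1) and 1.47 (Control replicate 1, Ccna2).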
